A study of Salvia miltiorrhiza with 5 samples.

Results

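*CYP76AH1* and *CYP76AH3* encode cytochrome P450 oxidases that act in the making of tanshinones by the medicinal sage *Salvia miltiorrhiza*. They are described here by 5 unigenes (assembled transcripts) out of 55588, chosen by the gene names in the study's list of tanshinone unigenes. *CYP76AH1* is represented by c21531_Smj-6h_g1_i1, SmiContig31868 and SmiContig4954, and *CYP76AH3* by SmiContig31867 and c22489_Smj-1h_g1_i4. All 5 were found in both tables and none was lost to a filter on low values. The libraries came from 40-day-old hairy roots, which are root cultures grown from leaf tissue infected with an *Agrobacterium* strain that carries a root-inducing plasmid. Roots were treated with methyl jasmonate (MeJA), a wound hormone, at 0.1 mM for 1 h (MeJA-1h) or 6 h (MeJA-6h), or with yeast extract (YE), a crude microbial elicitor, for 1 h (YE-1h) or 12 h (YE-12h). The control roots had no elicitor and were taken at 0 h. Every library mixed the RNA of 3 replicate samples, so 1 library stands for each condition. The libraries themselves therefore hold no replicate check of any difference below. The paper also measured *CYP76AH1* and other tanshinone genes by quantitative PCR, averaging independent biological replicates, and reports patterns that matched its sequencing. *CYP76AH3* is not named among those genes, and the PCR values were not used here.

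Tanshinones are abietane-type diterpenoid quinones that give the roots of this plant their red colour. CPS1 and KSL1, a pair of diterpene cyclases, fold geranylgeranyl diphosphate into the hydrocarbon miltiradiene. CYP76AH1, also called ferruginol synthase, oxidises miltiradiene to the phenol ferruginol, and CYP76AH3 adds further oxygen to ferruginol. Both enzymes are haem-containing monooxygenases that take their electrons from an NADPH-dependent reductase, and they stand at the entry to the late, oxidative part of the pathway.

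The counted read pairs summed to between 13395770 in the control and 20358510 in YE-12h. Levels are RPKM values (read pairs scaled to the length of the unigene and the total of the library), as the authors deposited them. A ratio of RPKM values over 2, or under 0.5, was taken as a call. The study paired a fold threshold with a false discovery rate, which was not applied here because each condition is 1 library. Intervals are exact 95% binomial intervals of the ratio of reads between 2 libraries. They cover counting error only, and reads that match several of these closely named unigenes may have been counted on more than 1. Time, handling and the ethanol in which MeJA was dissolved cannot be told apart from the elicitors, since all 4 elicited libraries are set against the same 0 h control. The tables pair no unigene with a root or cell type marker, so the tissue label was not checked.

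All 5 unigenes were highest in YE-12h and second in YE-1h, and both YE libraries were over 2-fold above the control for each of them. With MeJA no unigene passed 2-fold at either time. The 5 unigenes together took 0.110% of all counted reads in the control (exact 95% binomial interval, 0.108% to 0.112%), 0.265% in YE-1h (0.263% to 0.268%) and 0.416% in YE-12h (0.413% to 0.419%). In the MeJA libraries the share was 0.114% at 1 h (0.112% to 0.116%) and 0.148% at 6 h (0.146% to 0.149%).

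The leading *CYP76AH1* unigene, c21531_Smj-6h_g1_i1, stood at an RPKM value of 115 in the control, 141 at 1 h and 189 at 6 h of MeJA, and 321 at 1 h and 537 at 12 h of YE. Its reads numbered 2999 in the control and 4416, 5823, 11913 and 21329 in MeJA-1h, MeJA-6h, YE-1h and YE-12h. By RPKM value it stood at rank 80 of all unigenes in YE-12h, against rank 740 in the control. SmiContig31868, also named *CYP76AH1*, had RPKM values of 88.1 in the control, 106 and 144 at 1 h and 6 h of MeJA, and 258 and 411 at 1 h and 12 h of YE. Each step from the lowest library (control) through MeJA-1h, MeJA-6h and YE-1h to YE-12h exceeded counting error for both. This order of 5 libraries was found for 0.356% of the 55578 unigenes with more than 3 reads in at least 1 library.

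SmiContig4954, which also carries the name *CYP76AH1*, had RPKM values of 80.7 in the control, 79.3 and 102 at 1 h and 6 h of MeJA, and 178 and 284 at 1 h and 12 h of YE. MeJA-1h and the control, the lowest libraries for this unigene, did not differ beyond counting error (ratio of MeJA-1h to the control 0.983, interval 0.941 to 1.03). Its other neighbours in rank did.

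The *CYP76AH3* unigene SmiContig31867 had RPKM values of 131 in the control, 117 and 144 at 1 h and 6 h of MeJA, and 283 and 405 at 1 h and 12 h of YE. For c22489_Smj-1h_g1_i4 the values were 125 in the control, 117 and 146 with MeJA and 272 and 407 with YE, at the same times. Both were lowest in MeJA-1h, and all their neighbours in rank differed by more than counting error. The order they share with SmiContig4954, with the control above MeJA-1h, was seen in 0.54% of unigenes. For all 3 the place of the control above MeJA-1h depended on the scaling between libraries, as given below. SmiContig22538, the further unigene named *CYP76AH3*, is outside the 5. Its RPKM values were 100.4 in the control, 79.5 and 99.97 with MeJA and 183 and 275 with YE.

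**Figure D1:**
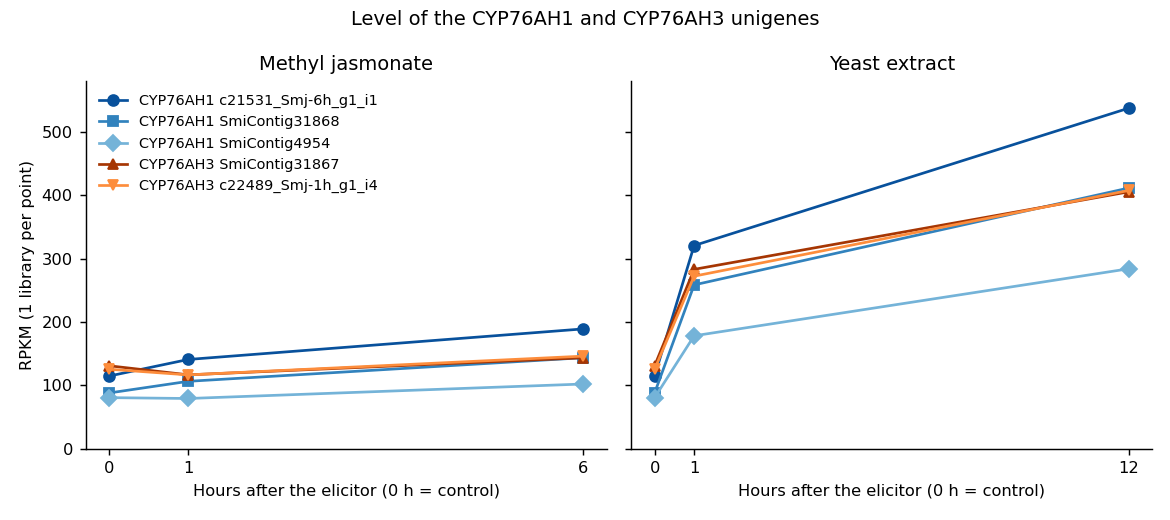
RPKM value (vertical axis, from 0) of each of the 5 unigenes against hours after the elicitor, with the control library at 0 h in both panels; each point is 1 library. The YE panel climbs to between 284 and 537 at 12 h, while with MeJA no unigene exceeds 189.

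In YE-12h against the control, 5 of 5 unigenes were over 2-fold higher, where 4.41% of the 55244 unigenes with a ratio were over 2-fold higher and 7.23% lower (5.84% and 5.01% with TMM scaling, which rests on a trimmed mean of the log ratios). The ratio was 4.68 for c21531_Smj-6h_g1_i1 (interval 4.50 to 4.86), 4.67 for SmiContig31868 (4.46 to 4.89) and 3.52 for SmiContig4954 (3.40 to 3.64). It was 3.10 for SmiContig31867 (2.97 to 3.22) and 3.25 for c22489_Smj-1h_g1_i4 (3.12 to 3.38). The 3 *CYP76AH1* unigenes had the larger ratios, and 372 of all unigenes had a larger ratio than the leading one. SmiContig22538 also passed, with a ratio of 2.74.

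In YE-1h against the control, 5 of 5 were over 2-fold higher, beside 7.82% of all unigenes over 2-fold higher and 8% lower (9.44% and 6.09% with TMM scaling). Ratios were 2.79 for c21531_Smj-6h_g1_i1 (2.68 to 2.91), 2.94 for SmiContig31868 (2.80 to 3.08), 2.21 for SmiContig4954 (2.13 to 2.29), 2.16 for SmiContig31867 (2.07 to 2.25) and 2.17 for c22489_Smj-1h_g1_i4 (2.08 to 2.26). The last 3 lay close to the threshold, and SmiContig22538 missed it at 1.82 (1.76 to 1.89). Unigenes over 2-fold higher at both YE times and higher at 12 h than at 1 h, as all 5 were, made up 0.817% of the 55085 with both ratios.

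In MeJA-6h against the control, 0 of 5 passed 2-fold, beside 6.9% of all unigenes higher and 13.5% lower (9.46% and 8.95% with TMM scaling). The values nonetheless lay above the control for all 5, and for 33.1% of all unigenes. The log2 ratios were 0.72 for c21531_Smj-6h_g1_i1, 0.71 for SmiContig31868, 0.34 for SmiContig4954, 0.13 for SmiContig31867 and 0.22 for c22489_Smj-1h_g1_i4. SmiContig22538 was at -0.01, within counting error of the control.

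In MeJA-1h against the control, 0 of 5 passed 2-fold, beside 7.61% of all unigenes higher and 12.2% lower (10.4% and 7.28% with TMM scaling). Log2 ratios were 0.30 for c21531_Smj-6h_g1_i1, 0.27 for SmiContig31868, -0.025 for SmiContig4954, -0.17 for SmiContig31867 and -0.11 for c22489_Smj-1h_g1_i4. The 3 negative values depended on the scaling. The log2 ratio of the median unigene to the control was -0.28 (MeJA-1h), -0.24 (MeJA-6h), -0.16 (YE-1h) and -0.16 (YE-12h). TMM scaling raised every log2 ratio by 0.28 (MeJA-1h), 0.24 (MeJA-6h), 0.15 (YE-1h) and 0.16 (YE-12h). With TMM scaling SmiContig4954 was at 0.25, SmiContig31867 at 0.11 and c22489_Smj-1h_g1_i4 at 0.17 in MeJA-1h. Relative to the median unigene, all 5 were higher in MeJA-1h, by 0.12 to 0.58 on the log2 scale.

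**Figure D2:**
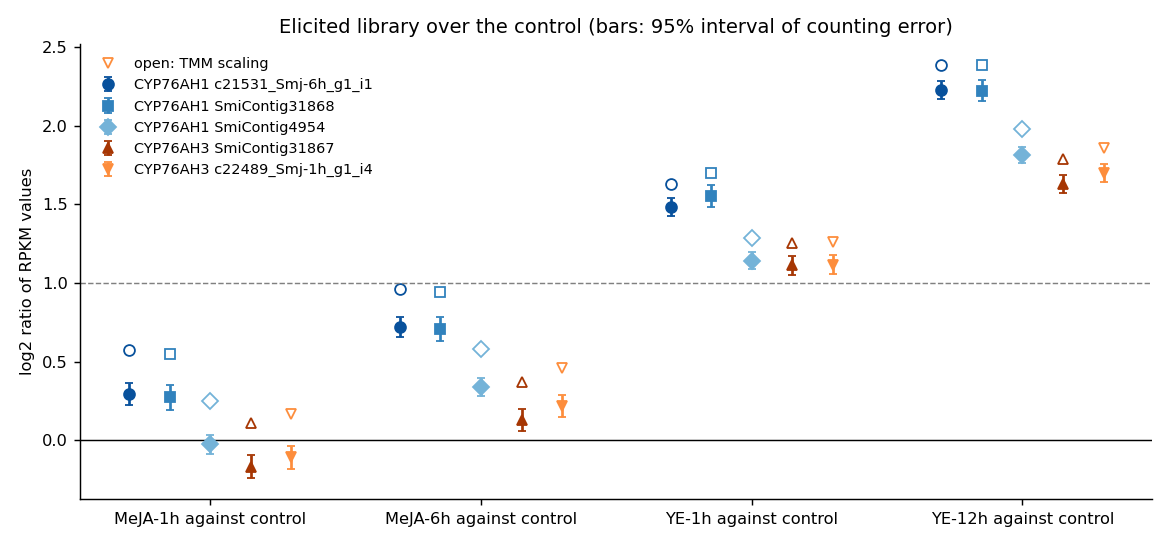
Log2 ratio of the RPKM value in each elicited library to that in the control, for the 5 unigenes; filled symbols use the deposited values with 95% intervals of counting error, open symbols TMM scaling, and the dashed line marks 2-fold. All filled and open symbols lie above the dashed line in the YE comparisons and below it in the MeJA comparisons, and only at MeJA-1h do filled and open symbols fall on different sides of 0.

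**Figure D3:**
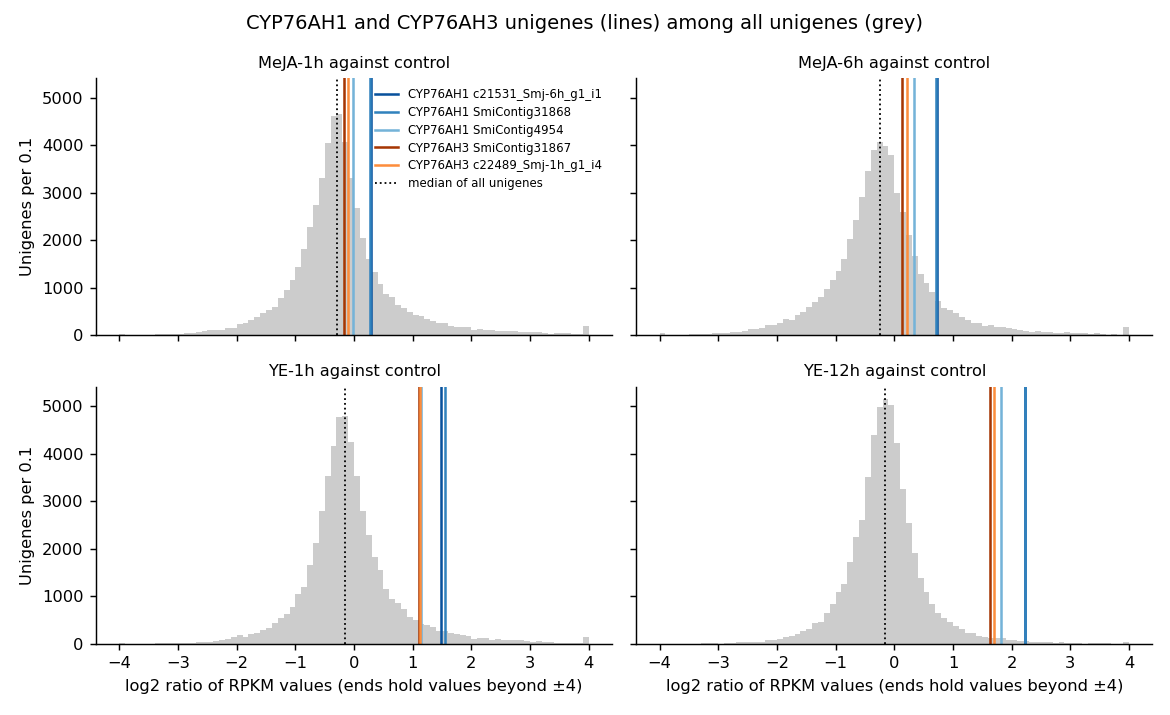
Distribution of the log2 ratio over all unigenes (grey, number per bin of 0.1) in the 4 comparisons with the control, with a line for each of the 5 unigenes and a dotted line at the median. In YE-12h the lines stand between 1.63 and 2.23, where the median unigene is at -0.16, and in MeJA-1h they stand between -0.17 and 0.30, where it is at -0.28.

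The time points of one elicitor were compared next. From 1 h to 12 h of YE all 5 unigenes were higher at the later time, but by less than 2-fold. Of all unigenes 48.3% were higher at the later time. YE-12h over YE-1h gave ratios of 1.68 for c21531_Smj-6h_g1_i1 (1.64 to 1.71), 1.59 for SmiContig31868 (1.55 to 1.63), 1.59 for SmiContig4954 (1.56 to 1.63), 1.43 for SmiContig31867 (1.39 to 1.47) and 1.496 for c22489_Smj-1h_g1_i4 (1.46 to 1.54). In this comparison 5.93% of all unigenes passed 2-fold upwards and 9.37% downwards. For MeJA-6h over MeJA-1h the ratios were between 1.23 and 1.35, with 0 of 5 past 2-fold, beside 6.26% of unigenes over 2-fold higher and 7.87% lower. The 6 h of MeJA and 12 h of YE are different times and were not compared.

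At the matched time of 1 h, YE over MeJA gave ratios of 2.28 for c21531_Smj-6h_g1_i1 (2.20 to 2.36), 2.43 for SmiContig31868 (2.33 to 2.53), 2.25 for SmiContig4954 (2.17 to 2.33), 2.43 for SmiContig31867 (2.33 to 2.53) and 2.34 for c22489_Smj-1h_g1_i4 (2.24 to 2.43). All 5 passed 2-fold, beside 12% of the 55415 unigenes with a ratio over 2-fold higher and 7.98% lower (9.89% and 9.49% with TMM scaling). With TMM scaling the log2 ratios of the 5 lay between 1.04 and 1.15, past 2-fold but close to it. Here the genes did not differ beyond counting error: the log2 ratio of *CYP76AH1* reads minus that of *CYP76AH3* reads was -0.05, with an interval of -0.10 to 0.00.

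Against the control the summed reads of the genes differed in size of response. Their ratio within a library does not depend on the scaling between libraries. Reads of the 3 *CYP76AH1* unigenes over reads of the 2 *CYP76AH3* unigenes were 1.93 in MeJA-1h (1.87 to 1.99), 2.06 in MeJA-6h (2.00 to 2.12), 1.87 in YE-1h (1.83 to 1.90) and 2.07 in YE-12h (2.04 to 2.10), against 1.57 in the control (1.52 to 1.62). The interval of the control lay below that of every elicited library. In log2 ratios to the control, *CYP76AH1* exceeded *CYP76AH3* by 0.30 after 1 h (0.23 to 0.36) and 0.39 after 6 h of MeJA (0.33 to 0.45), and by 0.25 after 1 h (0.20 to 0.31) and 0.40 after 12 h of YE (0.35 to 0.45). These 4 values share the control library. The excess was not shown by every *CYP76AH1* unigene. At YE-1h the log2 ratio of SmiContig4954 to the control was 1.14 (1.09 to 1.20). Its interval overlapped those of SmiContig31867 at 1.11 (1.05 to 1.17) and c22489_Smj-1h_g1_i4 at 1.12 (1.06 to 1.18). At YE-12h SmiContig4954 was higher, at 1.82 against 1.63 and 1.70.

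Per length, the order of the leading unigenes of the genes differed between the control and the elicited libraries. The RPKM value of c21531_Smj-6h_g1_i1 was 1.21 times that of SmiContig31867 in MeJA-1h (1.15 to 1.27), 1.32 times in MeJA-6h (1.26 to 1.37), 1.13 times in YE-1h (1.10 to 1.16) and 1.33 times in YE-12h (1.30 to 1.36), against 0.877 times in the control (0.833 to 0.923). This order rests on 1 of the 3 *CYP76AH1* unigenes. SmiContig4954 stayed below SmiContig31867 in every library, at 0.680 times its RPKM value after 1 h and 0.712 times after 6 h of MeJA, and 0.630 times after 1 h and 0.701 times after 12 h of YE, against 0.616 times in the control. SmiContig31868 was below SmiContig31867 in MeJA-1h, YE-1h and the control, and close to it in MeJA-6h (both 144) and YE-12h (411 and 405).

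**Figure D4:**
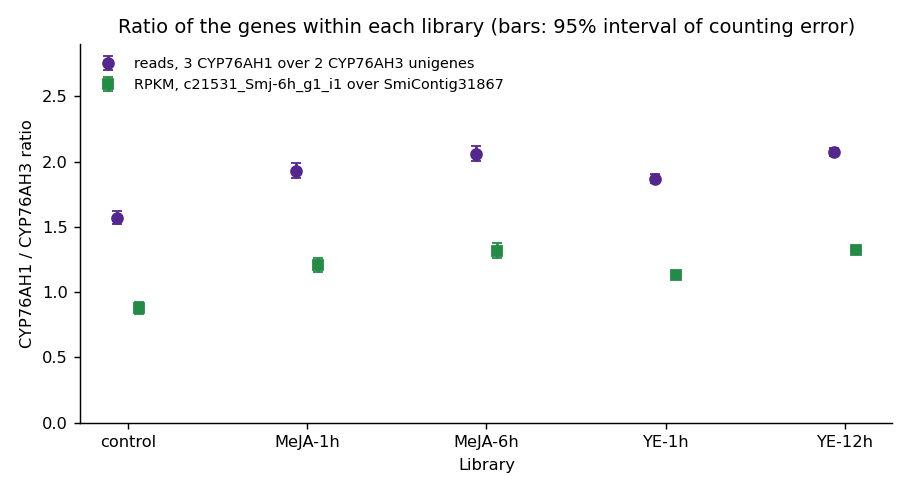
Ratio of *CYP76AH1* to *CYP76AH3* in each of the 5 libraries, as reads summed over 3 *CYP76AH1* and 2 *CYP76AH3* unigenes (circles) and as RPKM values of the leading unigene of each gene (squares), with 95% intervals of counting error. SmiContig22538 is not in the sums, and the height of the circles depends on which unigenes were summed. The control is lowest in both series, at 1.57 and 0.877.

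The unigenes of one name were not equally alike. The likeness of a pair was measured as the root mean square difference of their log2 RPKM values over the 5 libraries, each centred on its own mean, so that 0 is the same pattern. The *CYP76AH1* pair c21531_Smj-6h_g1_i1 and SmiContig31868 differed by 0.034, and the *CYP76AH3* pair SmiContig31867 and c22489_Smj-1h_g1_i4 by 0.035. SmiContig4954 differed by 0.149 and 0.154 from the other *CYP76AH1* unigenes and by 0.083 and 0.048 from SmiContig31867 and c22489_Smj-1h_g1_i4. Its pattern was thus closer to those 2 *CYP76AH3* unigenes. From SmiContig22538, also named *CYP76AH3*, it differed by 0.133, only a little less than from the other *CYP76AH1* unigenes. Lengths implied by counts and RPKM values set it apart as well: 3533 bp for SmiContig4954, 1950 bp for c21531_Smj-6h_g1_i1, 1833 bp for SmiContig31868, 1660 bp for SmiContig31867 and 1672 bp for c22489_Smj-1h_g1_i4. SmiContig22538, at 3342 bp, was the other long one. The RPKM value of c21531_Smj-6h_g1_i1 over that of SmiContig4954 was between 1.78 and 1.89 in the elicited libraries, against 1.42 in the control. Within the close pairs it was steadier, between 1.24 and 1.32 for c21531_Smj-6h_g1_i1 over SmiContig31868 and between 0.959 and 1.02 for c22489_Smj-1h_g1_i4 over SmiContig31867.

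The rest of the tanshinone list, 61 unigenes, mostly peaked in other libraries. SmiContig22538, which the study names *CYP76AH3*, is one of these 61, so they are not free of oxidase unigenes. The list is the study's and goes by the enzyme that each unigene encodes. At YE-12h 21 of the 60 with a ratio were over 2-fold higher than the control and 0 over 2-fold lower, and at YE-1h 44 of 61 were higher and 2 lower. With MeJA, where none of the 5 oxidase unigenes passed, 30 of 61 were over 2-fold higher at 1 h and 18 of 60 at 6 h, with 0 lower at either time. The median log2 ratio of the 5 oxidase unigenes was -0.025 after 1 h and 0.34 after 6 h of MeJA, and 1.14 after 1 h and 1.82 after 12 h of YE. For the others it was 0.97 and 0.57 with MeJA, and 1.20 and 0.81 with YE, at the same times.

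The contrast was plainest between the YE times. YE-12h exceeded YE-1h in 5 of 5 oxidase unigenes, while among the other 61 it did so in 14 and was lower in 47. Over all unigenes with a ratio, 48.3% were higher in YE-12h than in YE-1h. The median log2 ratio was 0.67 for the 5 and -0.39 for the 61, beside -0.02 over all unigenes. Of the other 61, 0 were over 2-fold higher and 11 over 2-fold lower at YE-12h than at YE-1h. The highest of the 5 libraries was YE-12h for 9 of the 61 (SmiContig22538 included), YE-1h for 31, MeJA-1h for 15 and MeJA-6h for 6. Over all unigenes 14% were highest in YE-12h.

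Taking the most abundant unigene of each of the other 24 names, the cyclases that supply the substrate of CYP76AH1 were among those that were lower at the later YE time. *KSL1* (SmiContig32378) had RPKM values of 40.4 in the control, 218 in YE-1h and 84.4 in YE-12h. *CPS1* (SmiContig26967) had 189.9 in the control, 556 in YE-1h and 326 in YE-12h. *GGPPS1* (SmiContig27610), whose enzyme makes geranylgeranyl diphosphate, had 56.6 in the control, 276 in YE-1h and 187 in YE-12h. For *KSL1* the level at YE-12h fell to 0.386 of that at YE-1h, past 2-fold, and *CPS1* and *GGPPS1* stood at 0.587 and 0.677 of it. Of the other cyclase names, *CPS5* (SmiContig26570) stood at 0.748 of its YE-1h level in YE-12h (0.680 to 0.821). For *CPS2* (c21908_Smj-1h_g1_i1, 0.758), *CPS4* (c22650_Smj-1h_g3_i1, 0.762) and *CPS3* (c12539_Smj-6h_g1_i1, 1.24, with 16 reads in YE-12h) the interval held 1.

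Among the precursor enzymes, the mevalonate (MVA) names were all lower at YE-12h than at YE-1h. The ratio was 0.490 for *HMGS* (SmiContig18784), 0.621 for *MDC* (SmiContig28339), 0.694 for *HMGR2* (SmiContig32425), 0.750 for *PMK* (SmiContig2894), 0.754 for *MK* (SmiContig5870), 0.929 for *HMGR3* (SmiContig24924) and 0.963 for *AACT1* (SmiContig13417). Of the prenyl chain enzymes *GPPS2* (SmiContig11755) was at 0.567, *IPPI* (SmiContig12363) at 0.810 and *FPPS* (SmiContig27663) at 0.869. The plastid MEP pathway, which feeds the diterpenes, was mixed. *DXR* (SmiContig13234), its second enzyme, was higher at YE-12h by 1.37-fold (1.30 to 1.45), *IDS* (SmiContig18288) by 1.15-fold (1.10 to 1.19), *HDS1* (SmiContig8237) by 1.03-fold (0.993 to 1.06) and *DXS3* (SmiContig8568) by 1.84-fold (1.65 to 2.06). *DXS2* (SmiContig21878) stood at 0.965, *CMK* (SmiContig31978) at 0.990 with an interval of 0.910 to 1.08, and *MCS* (c20596_Smj-6h_g1_i3) at 0.722. Only *DXR*, *HDS1* and *IDS* of the 24 names shared YE-12h as their highest library with *CYP76AH1* and *CYP76AH3*, and *DXS3* was highest in MeJA-6h.

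**Figure D5:**
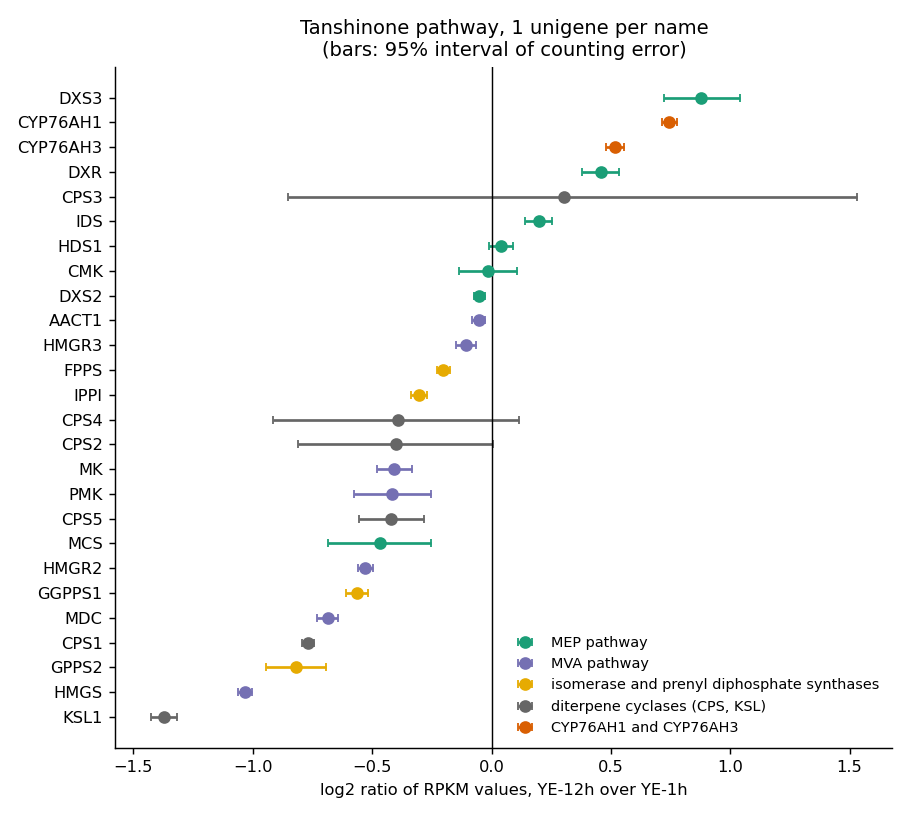
Log2 ratio of the RPKM value in YE-12h to that in YE-1h (horizontal axis) for the most abundant unigene of each of the 26 names in the tanshinone list, coloured by part of the pathway, with 95% intervals of counting error. *CYP76AH1* (0.74) and *CYP76AH3* (0.52) lie right of 0, the cyclases *CPS1* (-0.77) and *KSL1* (-1.37) left of it.

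The unigenes most like the oxidase genes were sought among 35766 others with at least 30 reads in every library, by the same root mean square difference over 5 libraries, with RPKM values summed per gene. SmiContig22538 was left out of this search. It differed by 0.081 from SmiContig31867 and by 0.096 from c22489_Smj-1h_g1_i4. The median difference from *CYP76AH1* was 0.846, and 7 unigenes lay within 0.2. In order they began with a *DXR* unigene, c13957_Sye-12h_g1_i1 (0.126), c19847_Smj-0h_g1_i1 (0.131), c20392_Sye-12h_g1_i2 (0.173), c19964_Smj-1h_g1_i1 (0.189) and SmiContig11876 (0.190). The study gives the P450 names CYP71B35 to c19847_Smj-0h_g1_i1 and c19964_Smj-1h_g1_i1 and CYP71A22 to SmiContig11876, and c20392_Sye-12h_g1_i2 has no name in the lists used here. These 3 P450 unigenes are among the 16 that the study assigned to *CYP76AH1* by pattern in these same libraries. Names came only from that P450 list and the tanshinone list, so finding P450 names here follows largely from that choice. For *CYP76AH3* the median difference was 0.746 and 27 unigenes lay within 0.2. The 3 closest were all named *DXR*, namely SmiContig13234 (0.075), c13957_Sye-12h_g1_i1 (0.0999) and SmiContig29364 (0.115), followed by the unnamed SmiContig6971 (0.120) and SmiContig31148 (0.130). *DXR* encodes the reductoisomerase that commits plastid precursors to the MEP route. Its unigene SmiContig13234 had RPKM values of 30.3 in the control, 26.1 and 35.7 at 1 h and 6 h of MeJA, and 62.5 and 85.8 at 1 h and 12 h of YE. Like the *CYP76AH3* unigenes, it was lowest in MeJA-1h and highest in YE-12h by the deposited RPKM values.

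Among the 45 P450 unigenes that the study lists with tanshinone genes, c21531_Smj-6h_g1_i1 and c22489_Smj-1h_g1_i4 appear themselves, under the name CYP76C2, and ranked 3 and 6 by mean RPKM value. The study drew the 45 from P450 unigenes that rose with an elicitor. It assigned each to a tanshinone gene by pattern in these libraries, 16 of them to *CYP76AH1*. Their likeness, the 2-fold calls and the highest libraries given below therefore follow largely from the choice. Besides the pair above, 14 remain. All 14 were highest in YE-12h and over 2-fold above the control there, with ratios of 3.05 to 10.0, while 6 passed at YE-1h, 1 at MeJA-6h and 0 at MeJA-1h. The largest ratio belonged to c20662_Sye-1h_g1_i2, also named CYP76C2, with RPKM values of 81.1 in YE-12h, against 8.08 in the control, on an implied length of 412 bp. It was also the one past 2-fold at MeJA-6h, with an RPKM value of 19.2. c13530_Sye-12h_g1_i1, named CYP76C1, had 77.7 in YE-12h, against 20.9 in the control, on 402 bp. Of the 29 P450 unigenes assigned to other genes, likewise by pattern, 27 were highest in YE-1h and 2 in YE-12h.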

How the data were processed

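RNA was measured in 5 libraries of hairy roots. The authors filtered the reads (NGS QC toolkit 2.3) and built the unigenes with Trinity. Per unigene, a count of read pairs was deposited. The counting program and the treatment of reads that match several unigenes are not given in the sources used here. The deposited counts are whole numbers that look like truncated estimates, since among 48 low counts the RPKM value implied at least 0.1 read more in 30 and over 0.1 less in 0. RPKM values were used as the authors deposited them. The extraction text of the labels names retinas and a TruSeq kit, and the methods name hairy roots and a SMART cDNA kit, so the library kit is not settled.

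Ratios were taken between deposited RPKM values, after any value of up to 3 reads was raised to 3, with no ratio where that held in both libraries. The work used matplotlib 3.10.9, scipy 1.17.1, pandas 2.3.3 and numpy 2.4.6 in Python 3.11.15, with edgeR 4.0.16 and DESeq2 1.42.0 in R 4.3.3 for alternatives. Reads of 3 give an RPKM value between 0.147 and 0.224 at 1 kb, far below the levels described. The ratios and intervals were run on simulated reads with counting error only. That run could not check variation between roots or reads shared between unigenes. The unigenes, lists and tests were chosen with earlier results of these data known. Unigenes were named by rule: the 5 and SmiContig22538, the most abundant unigene of each other name in the tanshinone list, the listed P450 unigenes with CYP76 names and the one with the largest YE-12h ratio among those listed with *CYP76AH1*, and the 5 closest patterns per gene. Gene names are the study's. A RefSeq table of 42046 genes matched 0 unigene names, and no sequence was at hand. Alternatives were other scalings, a pseudocount of 1 RPKM, a threshold of 1.5-fold, added read tests, a filter at 30 reads and other sums over unigenes.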

Additional observations from a re-analysis of the deposited data

Results flagged for a closer look

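At 1 h, 3 of the 5 unigenes had log2 ratios to the control of opposite sign with MeJA and YE. The log2 ratio was -0.025 in MeJA-1h and 1.14 in YE-1h for SmiContig4954, -0.17 and 1.11 for SmiContig31867, and -0.11 and 1.12 for c22489_Smj-1h_g1_i4. For SmiContig4954 the MeJA value did not differ from the control beyond counting error. With 1 library per condition the difference was not tested, both values share the control, and TMM or DESeq2 scaling turned the 3 MeJA values positive.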

How the results depend on the processing

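Every condition is 1 library, so leaving out a replicate could not be done, and no paired analysis was possible because no condition has a second sample. The count of unigenes past 2-fold was within 1.5 times in 50 of 56 combinations of comparison and alternative. These include comparisons with a count of 0, where an alternative that adds a test could only leave 0. With a threshold of 1.5-fold, 2 of the 5 passed in MeJA-6h against the control and 3 in YE-12h against YE-1h, in place of 0. When edgeR's exact test was also required, with the coefficient of variation between libraries assumed to be 0.2, 2 stayed in YE-1h against the control, and with a coefficient of 0.4 the number was 0 in YE-1h, 0 in YE-12h and 0 in YE-1h against MeJA-1h; with edgeR's binomTest on the reads it was 5 in each. YE-12h was the highest library for all 5 under TMM and DESeq2 scaling.

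At MeJA-1h TMM and DESeq2 scaling turned the log2 ratio of SmiContig4954 to 0.25 and 0.26, of SmiContig31867 to 0.11 and 0.12, and of c22489_Smj-1h_g1_i4 to 0.17 and 0.18. With TMM scaling the unigenes over 2-fold higher and lower were 10.4% and 7.28% at MeJA-1h, 9.46% and 8.95% at MeJA-6h, 9.44% and 6.09% at YE-1h and 5.84% and 5.01% at YE-12h.

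The excess of *CYP76AH1* over *CYP76AH3* stayed positive under all 4 alternatives. Each of them includes c21531_Smj-6h_g1_i1 or SmiContig31868, and none takes SmiContig4954 alone. At MeJA-1h, MeJA-6h, YE-1h and YE-12h it was 0.46, 0.59, 0.37 and 0.60 with the leading unigene of each gene, 0.41, 0.53, 0.37 and 0.56 with the median over unigenes, and 0.38, 0.47, 0.36 and 0.49 with SmiContig22538 added. Sums of RPKM values gave 0.46 at YE-12h.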

Other observations

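The unnamed unigene closest to *CYP76AH1*, c20392_Sye-12h_g1_i2, had RPKM values of 5.21 in the control, 6.82 and 11.1 at 1 h and 6 h of MeJA, and 18.5 and 25.7 at 1 h and 12 h of YE, and was 4.93-fold higher in YE-12h than in the control. SmiContig6971 and SmiContig31148, the unnamed ones closest to *CYP76AH3*, were 2.58-fold and 2.54-fold higher there.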
